A study of Mus musculus with 7 samples.

Results

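The 10 genes described here are 3 serum amyloid A genes (Saa1, Saa2, Saa3), 3 orosomucoid genes (Orm1, Orm2, Orm3), Lcn2, and 3 genes of the interleukin 6 pathway (Il6ra, Stat3, Socs3). They were taken by their symbols from the deposited expression tables of mouse liver, where each had 1 row with a valid value in every library, and they make up 10 of 15744 genes tested. They were chosen by name with earlier results of these libraries known, among them the FPKM of Myod1_active and Myod1_control, so their levels in that experiment are a description and carry no test. The 7 libraries came from liver of C57BL/6 mice in 4 groups. Myod1_active (1 library) and Myod1_control (2 libraries) are livers of SunTag-dCas9 knock-in mice with and without activation of Myod1, SunTag (2 libraries) are livers of SunTag-dCas9 knock-in mice from a separate comparison, and WT (2 libraries) are wild-type livers. dCas9 is a form of Cas9 that binds DNA at its guide's target without cutting it, and SunTag is a peptide array that gathers several effector molecules at that site. The promoter that drives the knock-in, the age of the mice, how Myod1 was activated and what the Myod1_control mice received are not given in the sources used here. Values are FPKM, that is fragments scaled to transcript length and to the size of the library.

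The acute phase response is the change in the set of plasma proteins that hepatocytes make when tissue is injured or infected. Interleukin 6 binds its receptor, encoded by Il6ra, which signals through the shared subunit gp130 to Janus kinases and the transcription factor STAT3, and STAT3 switches on Socs3, an inhibitor that closes the loop. Interleukin 1 and tumour necrosis factor act through NF-kB, glucocorticoids act through their own receptor, and C/EBP factors bind many acute phase promoters. Saa1 and Saa2 encode the circulating serum amyloid A proteins, which travel on high-density lipoprotein, and Saa3 is also made by macrophages and fat. The Orm genes encode orosomucoid, or alpha-1-acid glycoprotein, a plasma carrier protein, and Lcn2 encodes lipocalin 2, which binds bacterial siderophores and is made by hepatocytes and by neutrophils.

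RefSeq promoter windows of GRCm38.p6 (250 bases before to 50 bases after the start of the gene) were found for 9 of the 10 genes, all but Orm1. A C/EBP motif (TTGCNNAA on either strand) lay in 6 of the 9 windows, those of Saa1, Saa2, Saa3, Orm2, Orm3 and Lcn2, against 10.8% of all 32851 windows of the same length. These stretches show that shared element, with the match in capitals, each 5′ to 3′ on the strand of its gene. In Saa3 the match is to the motif on the other strand. The Saa1 and Saa2 windows were 95.3% identical and the Orm2 and Orm3 windows 86.2%, so the 6 matches are not independent.
Saa1, chr7:46743147-46743170, minus strand, 182 bases before the start: tgctcccaTTGCACAAtgagggag
Saa2, chr7:46751642-46751665, plus strand, 183 bases before the start: tgctcccaTTGCACAAtgagggaa
Saa3, chr7:46715760-46715783, minus strand, 99 bases before the start: aagtgggaTTATGCAAgatcaaac
Orm2, chr4:63362321-63362344, plus strand, 120 bases before the start: agaacattTTGCGCAAgacatttc
Orm3, chr4:63356029-63356052, plus strand, 121 bases before the start: ggaacattTTGCACAAgacattta
Lcn2, chr2:32387940-32387963, minus strand, 216 bases before the start: ccttcctgTTGCTCAAccttgcac

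A STAT motif (TTCNNNGAA, the same on both strands) lay in 1 of the 9 windows, that of Socs3, against 8.30% of all windows. The short glucocorticoid receptor element (TGTTCT on either strand) lay in those of Orm2 and Stat3, against 19.0% of all windows. In Orm2 that element, on the opposite strand, begins 128 bases before the start, just upstream of the C/EBP match. The NF-kB consensus was found in 0 of the 9 windows, against 8.46% of all windows, which says only that its letters are not in these stretches. No motif overlapped another in these windows. The 200 bases before the start are printed for Orm2 and Orm3, whose levels stood out most in Myod1_active, for Saa1 as their counterpart on chromosome 7 and for Socs3. C/EBP and STAT matches are in capitals, and a match is a description of letters, not a binding site.
Orm2, chr4:63362249-63362448, plus strand: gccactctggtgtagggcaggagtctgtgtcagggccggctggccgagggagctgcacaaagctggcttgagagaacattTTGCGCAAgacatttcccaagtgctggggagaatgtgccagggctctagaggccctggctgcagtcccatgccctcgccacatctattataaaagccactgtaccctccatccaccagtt
Orm3, chr4:63355958-63356157, plus strand: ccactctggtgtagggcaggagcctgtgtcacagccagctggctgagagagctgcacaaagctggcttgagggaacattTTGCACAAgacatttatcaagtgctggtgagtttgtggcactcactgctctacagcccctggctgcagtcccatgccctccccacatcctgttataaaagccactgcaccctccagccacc
Saa1, chr7:46742981-46743180, minus strand: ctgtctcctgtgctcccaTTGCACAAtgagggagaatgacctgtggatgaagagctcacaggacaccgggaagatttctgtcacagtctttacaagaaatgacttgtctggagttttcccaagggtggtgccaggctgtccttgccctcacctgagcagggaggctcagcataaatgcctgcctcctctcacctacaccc
Socs3, chr11:117969367-117969566, minus strand: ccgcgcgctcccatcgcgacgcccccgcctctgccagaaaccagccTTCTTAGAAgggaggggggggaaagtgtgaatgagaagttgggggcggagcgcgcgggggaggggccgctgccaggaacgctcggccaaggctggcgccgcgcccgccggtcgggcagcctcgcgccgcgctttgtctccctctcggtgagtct
Over their 300 bases the Orm2 and Orm3 windows were 86.2% identical and those of Saa1 and Saa2 95.3%, while Orm2 and Saa1 were 49.5% identical.

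Read counts were not given, and the deposited intervals gave relative depths of 0.945 to 1.09 over the 7 libraries. Myod1, the activated gene, was at 3.52 FPKM in Myod1_active and listed at 0 in the other 6 libraries. The 10 hepatocyte markers were present in every library, with a summed level of 59060 to 99240 FPKM. Xist, which is transcribed in female cells, was at 0.00420 to 0.324 FPKM in the 3 libraries of the activation experiment and at 56.9 to 82.2 FPKM in the other 4, while the Y-linked gene Ddx3y was at 6.97 to 9.23 FPKM and at 0 to 0.0765 FPKM. The labels give no sex, and in levels set across the experiments the experiment and these sex-linked genes cannot be told apart. Log2 differences below are on the log2(FPKM + 1) scale and are taken from the median gene, which lay 0.25 higher in Myod1_active than in Myod1_control.

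Myod1_active was set against Myod1_control to see what differed in liver when Myod1 was activated, and the Orm family held the largest differences among the 10 genes. Orm2 (ENSMUSG00000061540; mm9 chr4:63023483-63026912) was at 814 FPKM in Myod1_active, 74.4 and 49.9 FPKM in Myod1_control, 249 and 202 FPKM in SunTag and 207 and 165 FPKM in WT. The activated library was thus the highest of the 7 and the controls were the lowest. Set against the control mean of 62.1 ± 17.4 FPKM (SD, n = 2), Orm2 was 13.1-fold higher, and 10.9-fold and 16.3-fold higher against each control alone. Its log2 difference was 3.47, and 73 of the 15744 genes had a larger one.

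Orm3 (ENSMUSG00000028359; mm9 chr4:63017196-63020545) was likewise highest in the activated library and lowest in its controls. It was at 78.3 FPKM in Myod1_active, 9.69 and 5.69 FPKM in Myod1_control, 25.6 and 37.0 FPKM in SunTag and 29.4 and 28.4 FPKM in WT. The activated library was 10.2-fold above the control mean, with a log2 difference of 2.98. Orm1 (ENSMUSG00000039196; mm9 chr4:63005594-63009197), the most abundant of the family, was at 1084 FPKM in Myod1_active, 574 and 442 FPKM in Myod1_control, 1106 and 862 FPKM in SunTag and 967 and 798 FPKM in WT. Here the activated library was 2.13-fold above the control mean, with a log2 difference of 0.85, and lay within the range of the SunTag libraries.

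**Figure D1:**
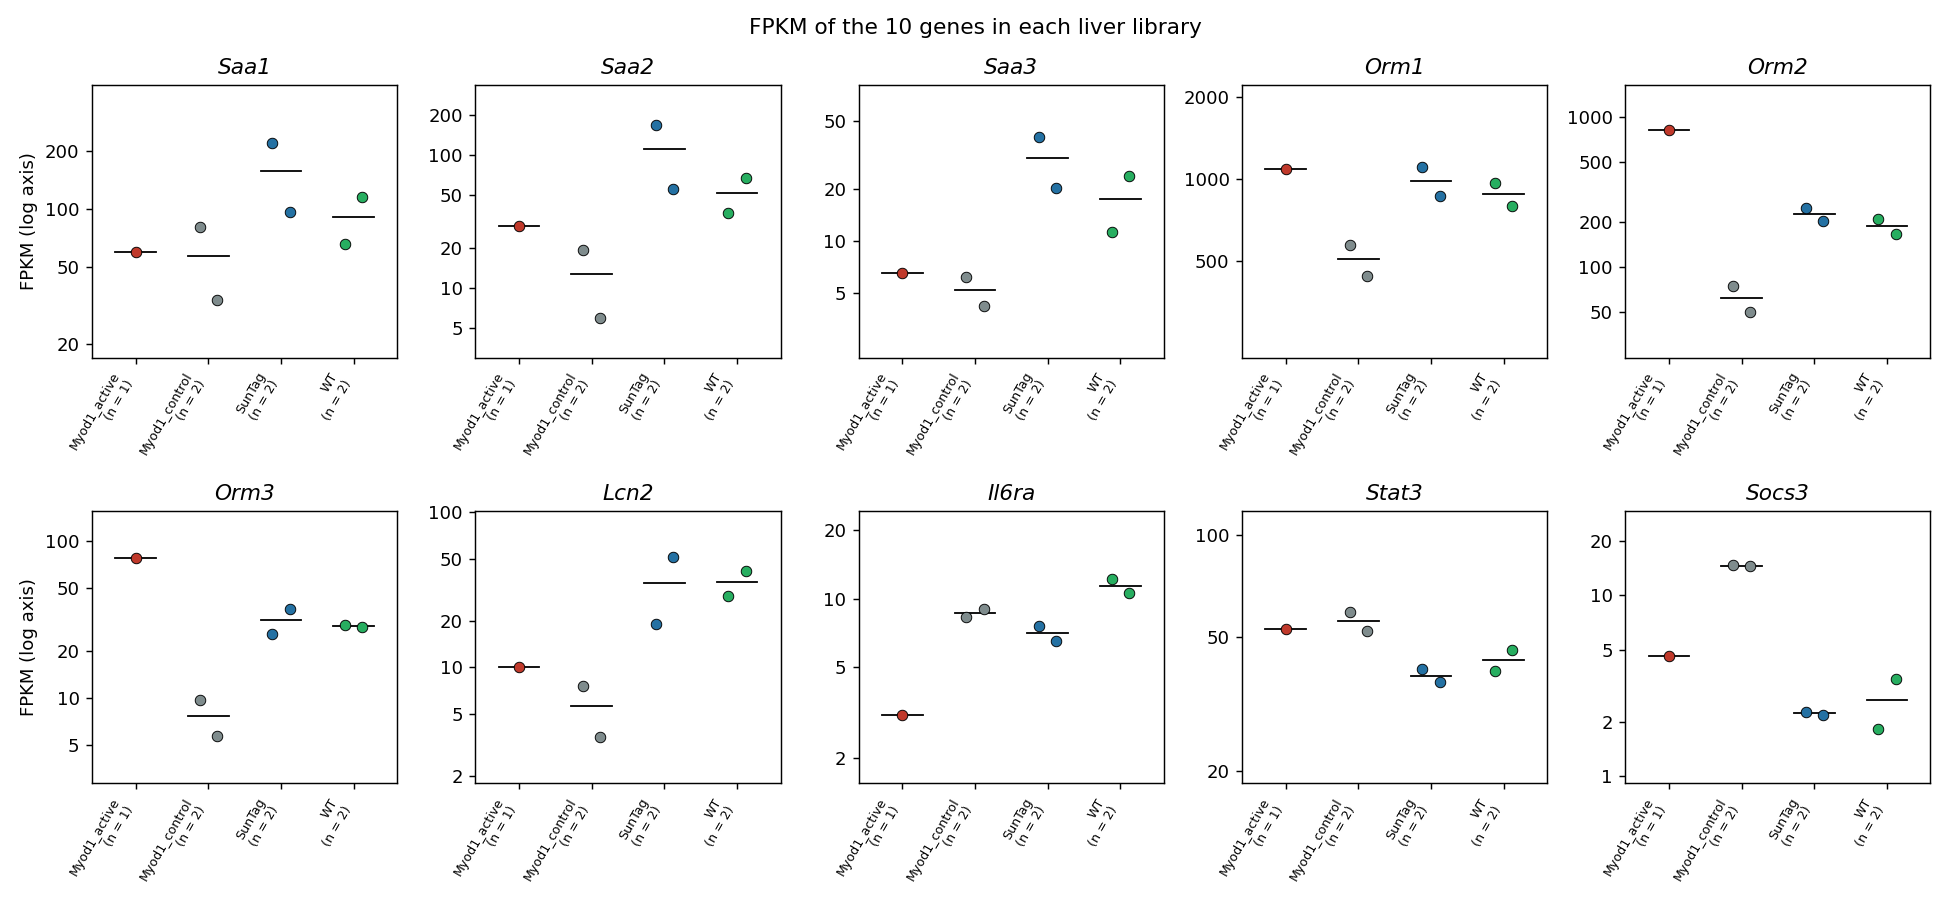
FPKM of each of the 10 genes on a log axis, with 1 point per library and a line at the group mean, for Myod1_active (1 library), Myod1_control, SunTag and WT (2 libraries each). Orm2 and Orm3 are highest in the Myod1_active library, at 814 and 78.3 FPKM, Saa1 in that library lies between its controls, and Socs3 is highest in both Myod1_control libraries, at 14.8 and 14.5 FPKM.

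The make-up of the Orm family therefore differed in the activated library. The 3 genes summed to 1976 FPKM in Myod1_active, 658 and 498 FPKM in Myod1_control, 1380 and 1101 FPKM in SunTag and 1204 and 992 FPKM in WT. Orm2 made up 41.2% of that sum in Myod1_active, 11.3% and 10.02% in Myod1_control, 18.0% and 18.3% in SunTag and 17.2% and 16.7% in WT. Per transcript length, the level of Orm2 was 0.751 of that of Orm1 in Myod1_active, against 0.121 ± 0.0119 (SD, n = 2) in Myod1_control, and it was 0.229 ± 0.00630 in SunTag and 0.211 ± 0.00488 in WT. The ratio of Orm3 to Orm2 was 0.0962 in Myod1_active and 0.103 to 0.183 in the other 6 libraries.

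**Figure D2:**
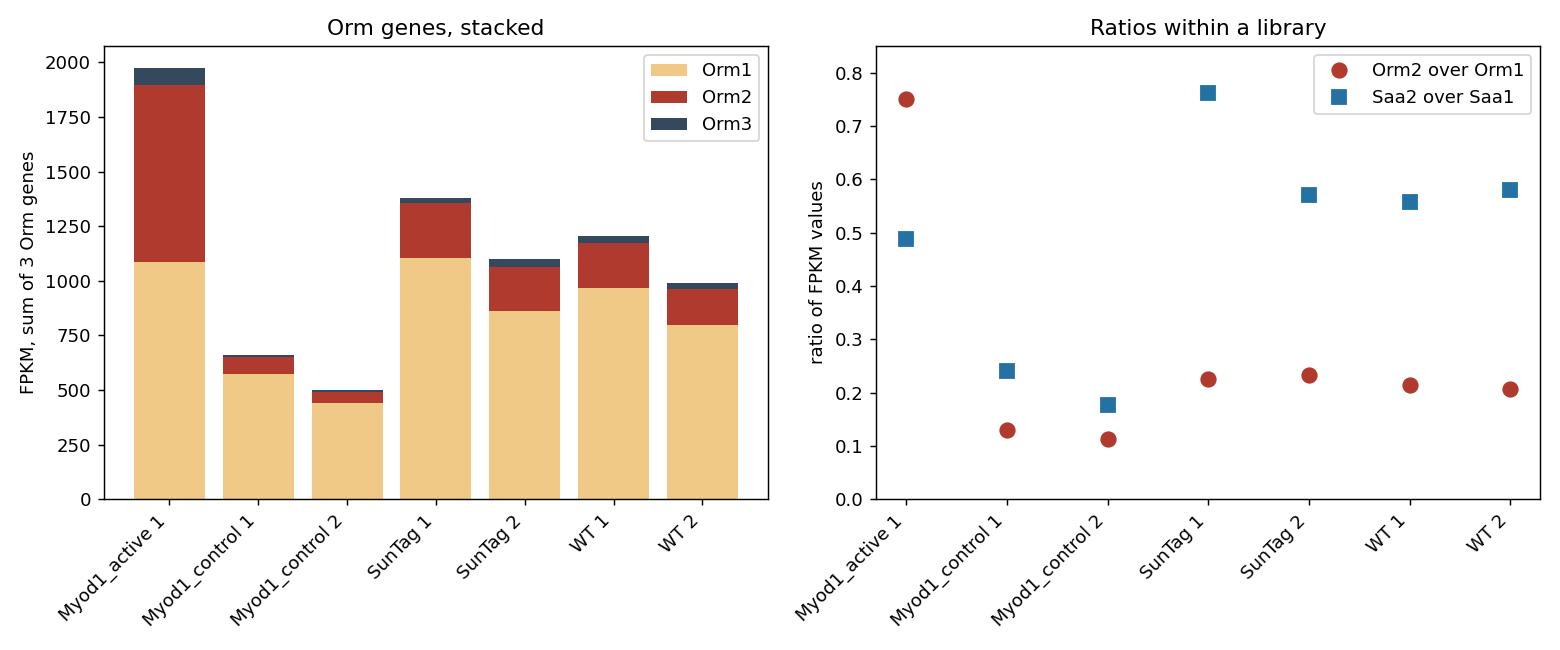
Left, summed FPKM of Orm1, Orm2 and Orm3 in each library as stacked bars. Right, the ratio of Orm2 to Orm1 and of Saa2 to Saa1 within each library: the Orm ratio is 0.751 in Myod1_active and 0.113 to 0.234 in the other 6 libraries.

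These genes are close copies, and no source used here says how the counting split reads between them. The GENCODE vM21 transcripts of Orm2 and Orm1 were 91.0% identical, and 20.4% of the 50-base words of Orm2 also occurred in Orm1. Orm2 and Orm3 were 88.0% identical and shared 3.58% of the words of Orm2. Saa1 and Saa2 were 93.9% identical and shared 13.2% of the words of Saa1. In all 7 libraries the FPKM of the 6 Saa and Orm genes and of Stat3 lay outside its own deposited interval, as for Orm2 in Myod1_active, where 814 FPKM stood beside an interval of 596 to 620. The intervals were therefore not used as errors. The level of any 1 of these copies may depend on how reads were split between them, which was not tested.

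The Saa genes did not show the pattern of Orm2. Saa1 (ENSMUSG00000074115; mm9 chr7:53995871-53998350) was at 60.1 FPKM in Myod1_active, 80.2 and 33.96 FPKM in Myod1_control, 219 and 96.9 FPKM in SunTag and 65.8 and 115 FPKM in WT. The activated library lay between its controls, 1.05-fold above their mean of 57.1 ± 32.7 FPKM (SD, n = 2). It was 0.749-fold of control replicate 1 and 1.77-fold of control replicate 2, so the direction rests on which control is used. Saa2 (ENSMUSG00000057465; mm9 chr7:54007203-54009684) was at 29.3 FPKM in Myod1_active, 19.3 and 5.97 FPKM in Myod1_control, 167 and 55.3 FPKM in SunTag and 36.7 and 66.9 FPKM in WT. The activated library was above both controls, 1.52-fold and 4.92-fold above each, and below the SunTag and WT libraries. Saa3 (ENSMUSG00000040026; mm9 chr7:53967368-53971046) was at 6.50 FPKM in Myod1_active, 6.18 and 4.19 FPKM in Myod1_control, 40.5 and 20.3 FPKM in SunTag and 11.3 and 24.0 FPKM in WT. It lay 1.05-fold above the nearer control, a smaller gap than that between the controls themselves. The 3 Saa genes together summed to 96.0 FPKM in Myod1_active and to 106 and 44.1 FPKM in Myod1_control.

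Lcn2 (ENSMUSG00000026822; mm9 chr2:32240153-32243317) was at 10.01 FPKM in Myod1_active, 7.61 and 3.57 FPKM in Myod1_control, 19.1 and 51.0 FPKM in SunTag and 28.9 and 41.6 FPKM in WT. The activated library lay above both controls and below all SunTag and WT libraries. Of 12 neutrophil markers, whose cells also make Lcn2, 5 were under 1 FPKM in every library. Their summed level was 2.78 FPKM in Myod1_active, 1.89 and 3.004 FPKM in Myod1_control, 48.5 and 8.59 FPKM in SunTag and 18.5 and 11.2 FPKM in WT. Lcn2 was lowest of the SunTag and WT libraries in SunTag replicate 1, where that sum was highest.

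The 3 pathway genes had different levels relative to their controls. Il6ra (ENSMUSG00000027947; mm9 chr3:89673246-89717084), the receptor's ligand-binding chain, was at 3.09 FPKM in Myod1_active, 8.29 and 9.02 FPKM in Myod1_control, 7.61 and 6.50 FPKM in SunTag and 12.2 and 10.7 FPKM in WT. The activated library was the lowest of the 7, at 0.357-fold of the control mean and a log2 difference of -1.49. Stat3 (ENSMUSG00000004040; mm9 chr11:100746412-100800854) was at 52.7 FPKM in Myod1_active, 59.1 and 51.9 FPKM in Myod1_control, 39.98 and 36.7 FPKM in SunTag and 39.6 and 45.7 FPKM in WT, so the activated library lay between its controls. Socs3 (ENSMUSG00000053113; mm9 chr11:117827393-117831361), whose product inhibits the Janus kinases, was at 4.60 FPKM in Myod1_active, 14.8 and 14.5 FPKM in Myod1_control, 2.26 and 2.19 FPKM in SunTag and 1.82 and 3.46 FPKM in WT. It was at 0.314-fold of the control mean, with a log2 difference of -1.73, while still above the SunTag and WT libraries. Orm2 and Orm3 were highest in the library in which Il6ra was lowest and Socs3 lay below its controls and above SunTag and WT. A link between these levels was not tested. These are levels of RNA, and activated STAT3 protein was not measured.

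In that comparison 6 of the 10 genes lay above both controls, where 61.4% of all genes did, and 2 lay below both, where 16.6% of all genes did, which makes 8 of 10 outside the controls against 78.0% of all genes. Past a 2-fold difference from the median gene, and outside the range of the controls, 3 lay higher (Saa2, Orm2, Orm3), against 2.83% of all genes, and 2 lay lower (Il6ra, Socs3), against 2.75%. In the limma fit over all genes 1 of the 10, Orm2, had an adjusted p under 0.05, where 0.254% of all genes did (0.216% higher and 0.0381% lower). Those shares are 34 genes higher and 6 lower, a balance that was 58 and 64 without Myod1_control replicate 1, 45 and 49 without replicate 2 and 13 and 10 with a pseudocount of 0.1. Since the genes were chosen with these libraries in view, nothing is read from those counts. They rest on 1 activated library. The Orm2 call ended in 7 of 12 other settings: without Myod1_control replicate 2, without any 1 of the SunTag or WT libraries, with a pseudocount of 0.1 and in a fit of Myod1_active and Myod1_control only.

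Saa1, Saa2 and Saa3 lie on the chromosome of Myod1 and the Orm genes on another. On mm9 the Saa genes begin 333 to 373 kb beyond the end of Myod1 (chr7:53631844-53634462), and the Orm cluster spans chr4:63005594-63026912. Between Myod1 and Saa2 the tables held 6 further genes, of which 3 were expressed enough to test, and 0 of the 3 passed limma's test or had an unadjusted p under 0.05, where 0.254% and 19.5% of all genes did, so a count of 0 among 3 sets these genes apart from no others. Sergef was at 2.95 FPKM in Myod1_active, against 1.39 and 2.23 FPKM in Myod1_control, and Saal1 was at 1.86 FPKM, against 1.58 and 1.43 FPKM. Saa4, the constitutive serum amyloid A gene, was at 74.0 FPKM in Myod1_active, against 64.5 and 52.6 FPKM in Myod1_control. Their log2 differences were 0.26, -0.06 and 0.09, beside -0.05 for Saa1, 0.05 for Saa3 and 1.10 for Saa2. Within 100 kb of the Orm cluster 1 of 4 further genes was tested, Gm11212, an unprocessed pseudogene per GENCODE that lies between Orm1 and Orm3. It was at 4.69 FPKM in Myod1_active, 0.196 and 0.325 FPKM in Myod1_control and 0 to 0.236 FPKM in SunTag and WT. Its log2 difference of 1.92 is a description only, because Gm11212 reached the filter of 1 FPKM in Myod1_active alone. Of its 50-base words 1.23% occurred in Orm2. The part of distance from Myod1 in any of these levels was not tested.

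**Figure D3:**
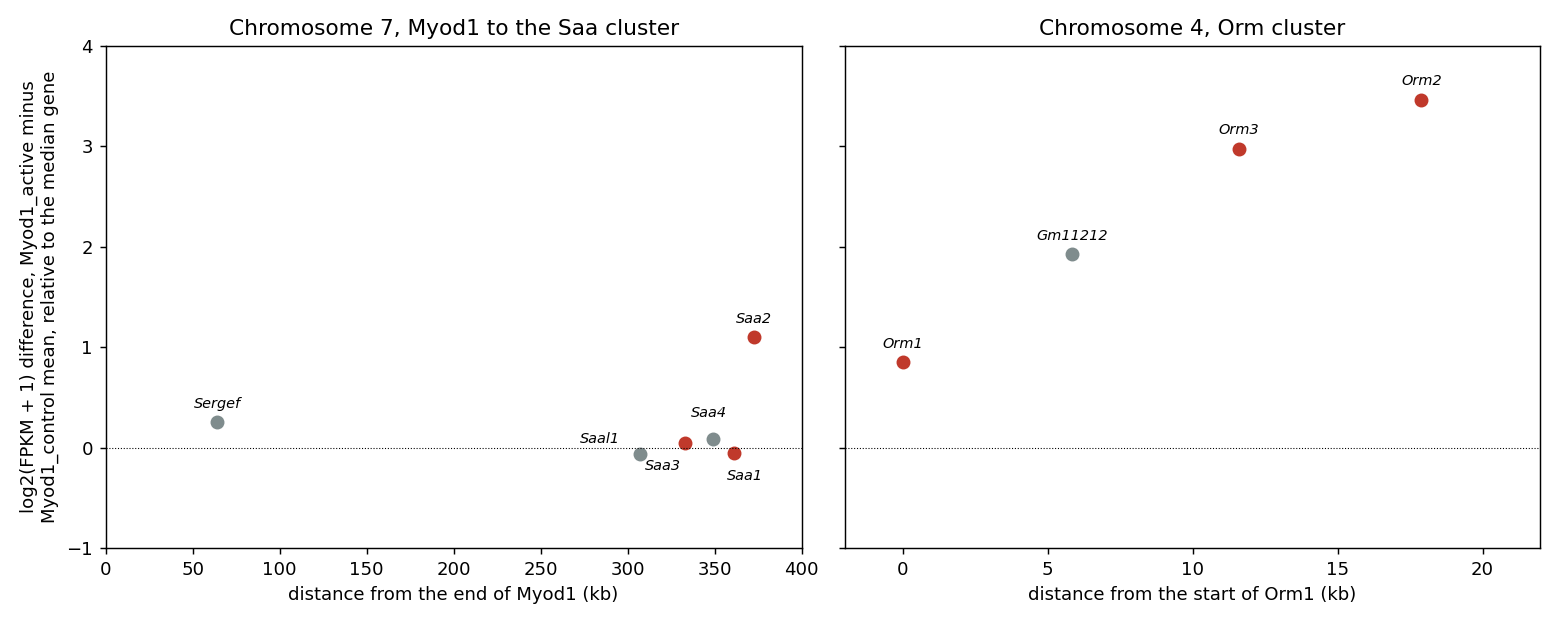
Log2(FPKM + 1) difference of Myod1_active from the mean of Myod1_control, relative to the median gene, for the tested genes from Myod1 to the Saa cluster on chromosome 7 by distance from the end of Myod1 (left) and for the Orm cluster on chromosome 4 by distance from the start of Orm1 (right). Red points are members of the 10 genes and grey points are their neighbours. The chromosome 4 genes lie between 0.85 and 3.47, and those of chromosome 7 between -0.06 and 1.10.

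The other acute phase and cytokine genes were taken from 8 lists with 115 tested genes, chosen like the 10 with earlier results known. In Myod1_active against Myod1_control 0 of the 115 passed limma's test, against 0.254% of all genes, and 12.2% had an unadjusted p under 0.05, against 19.5% of all genes. The list of positive acute phase proteins, a class that increases in plasma during inflammation, held 28 other tested genes. It was broad, and among the 28 were the constitutive Saa4 and the metallothioneins Mt1 and Mt2. Of the 28, 9 lay above and 19 below the median gene, with a median log2 difference of -0.19. The median over all genes tested is 0 on this scale. C-reactive protein, Crp, was at 95.3 FPKM in Myod1_active, against 171 and 159 FPKM in Myod1_control. The activated library was thus below both controls for this gene, by a log2 difference of -1.04 (limma adjusted p = 0.268). Itih3, a chain of inter-alpha-trypsin inhibitor, was at 545 FPKM in Myod1_active, against 660 and 612 FPKM in Myod1_control, and Itih4 was at 634 FPKM, against 621 and 635 FPKM. The protease inhibitor Pzp was at 985 FPKM, against 1323 and 1365 FPKM. Itih3 and Pzp were thus below both controls, and Itih4 lay between its controls. Of the 28, 10 lay above both controls and 12 below both, where 61.4% and 16.6% of all genes did. Those above included Hamp, at 2693 FPKM in Myod1_active, against 1668 and 1134 FPKM in Myod1_control. Of the 10 hepatocyte markers 8 lay below the median gene, and 7 lay below both controls, where 16.6% of all genes did. Their median log2 difference was -0.42, the lowest was -1.56 for Cyp2e1, and 0 passed limma's test. Their part in these levels was not tested. The fibrinogen-like Fgl1 was at 268 FPKM in Myod1_active, against 240 and 177 FPKM in Myod1_control. Mt1, a metal-binding metallothionein, was at 30.5 FPKM, against 6.53 and 11.9 FPKM, and Mt2 was at 5.91 FPKM, against 2.22 and 3.97 FPKM. The activated library was above both controls for these 3 genes, and of the 28 the highest log2 difference was that of Mt1, 1.42, below those of Orm2 and Orm3. In SunTag and WT Mt1 was at 323 to 994 FPKM and Mt2 at 101.5 to 365 FPKM, above every library of the activation experiment.

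Of 10 negative acute phase proteins, which decrease in inflammation, 4 lay above and 6 below the median gene, with a median log2 difference of -0.15. The apolipoprotein gene Apoa2 was at 8407 FPKM in Myod1_active, against 10630 and 10400 FPKM in Myod1_control, and Apom was at 423 FPKM, against 408 and 245 FPKM. Serpina6, which carries corticosteroids in plasma, was at 113 FPKM in Myod1_active, against 61.5 and 82.7 FPKM in Myod1_control, and Fetub, a fetuin, was at 258 FPKM, against 244 and 215 FPKM. Apoa2 was therefore below both controls and the other three were above both.

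Among ligands and receptors of the interleukin 6 family 8 of 15 were tested, 5 above and 3 below the median gene (median of the list 0.16). Il6 itself was listed at 0 in 6 libraries and was at 0.0300 FPKM in WT replicate 2. Il6st, which encodes gp130, was at 22.5 FPKM in Myod1_active, against 23.3 and 20.7 FPKM in Myod1_control, within the range of the controls, unlike Il6ra. Lifr, the leukaemia inhibitory factor receptor, was at 36.6 FPKM in Myod1_active, against 92.05 and 64.6 FPKM in Myod1_control, below both. Il11ra1, the interleukin 11 receptor chain, was at 45.6 FPKM in Myod1_active, against 34.1 and 27.4 FPKM in Myod1_control, and Adam17, a protease that cuts the Il6ra product from the cell surface, was at 9.95 FPKM, against 7.70 and 5.68 FPKM, both above their controls.

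Of 18 tested Janus kinases, other STATs and their inhibitors 10 lay above and 8 below the median gene (median of the list 0.04). Stat5a was at 11.6 FPKM in Myod1_active, against 10.4 and 8.89 FPKM in Myod1_control, and Stat5b was at 21.4 FPKM, against 21.8 and 19.2 FPKM. The phosphatase Ptpn2 was at 3.26 FPKM in Myod1_active, against 3.32 and 3.06 FPKM in Myod1_control, and Pias1, an inhibitor of STAT signalling, was at 3.43 FPKM, against 2.23 and 2.30 FPKM. Stat5b and Ptpn2 lay between their controls, and Stat5a and Pias1 above them.

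Of 14 tested regulators that STAT3 is known to induce 5 lay above and 9 below the median gene (median of the list -0.29). The growth regulator Myc was at 10.5 FPKM in Myod1_active, against 22.4 and 12.6 FPKM in Myod1_control, and the kinase Pim1 was at 16.9 FPKM, against 22.01 and 17.6 FPKM, both below their controls. Of the 14, 5 lay above both controls and 6 below both, where 61.4% and 16.6% of all genes did. Those above, named after their values were seen, were Fos, Cebpb, Bcl3, Mcl1 and Hif1a. Fos, an immediate early gene, was at 4.32 FPKM in Myod1_active, against 0.722 and 0.812 FPKM in Myod1_control (log2 difference 1.34, limma adjusted p = 0.117), the lowest adjusted p of the 115 listed genes. Cebpb, a C/EBP factor, was at 198 FPKM in Myod1_active, against 120.1 and 83.5 FPKM in Myod1_control, and at 54.5 to 111 FPKM in SunTag and WT (log2 difference 0.72, limma adjusted p = 0.352). It was thus highest in the activated library, and Cebpd, the other C/EBP factor of the list, lay between its controls there (log2 difference -0.45). The part of these factors in the Orm levels was not tested. Vegfa, a growth factor of blood vessels, was at 126 FPKM in Myod1_active, against 126 and 136 FPKM in Myod1_control, and Fgl2 was at 0.105 FPKM, against 0.0757 and 0.174 FPKM.

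Of 23 tested genes of the interleukin 1, tumour necrosis factor and NF-kB group 8 lay above and 15 below the median gene (median of the list -0.13). The cytokine genes themselves were near 0 in the activation experiment. Il1b was at 0.225 FPKM in Myod1_active, against 0.111 and 0 FPKM in Myod1_control, Il1a was at 0.266 FPKM, against 0.291 and 0.459 FPKM, and Tnf, which did not pass the filter, was at 0.299 FPKM, against 0 and 0 FPKM. The chemokine gene Ccl2 was at 0 FPKM in Myod1_active, against 0.0888 and 0 FPKM in Myod1_control. Il1r1, which encodes an interleukin 1 receptor, was at 5.57 FPKM in Myod1_active, against 9.82 and 6.17 FPKM in Myod1_control, below both controls. The NF-kB inhibitor Nfkbia was at 13.5 FPKM in Myod1_active, against 9.63 and 9.001 FPKM in Myod1_control, above both.

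Of the 10 tested glucocorticoid receptor genes and targets 3 lay above and 7 below the median gene (median of the list -0.55). Tsc22d3, a glucocorticoid-induced regulator, was at 21.6 FPKM in Myod1_active, against 18.5 and 33.8 FPKM in Myod1_control, between its controls. Tat, tyrosine aminotransferase, was at 803 FPKM in Myod1_active, against 595 and 685 FPKM in Myod1_control, above both, and the transcription factor Zbtb16 was at 2.63 FPKM, against 11.3 and 10.3 FPKM, below both. Of the 4 tested iron and siderophore partners of Lcn2 3 lay above and 1 below the median gene (median of the list 0.23). Bdh2, which makes a mammalian siderophore, was at 7.80 FPKM in Myod1_active, against 5.46 and 3.76 FPKM in Myod1_control, and the ferritin gene Fth1 was at 1036 FPKM, against 824 and 864 FPKM, both above their controls.

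**Figure D4:**
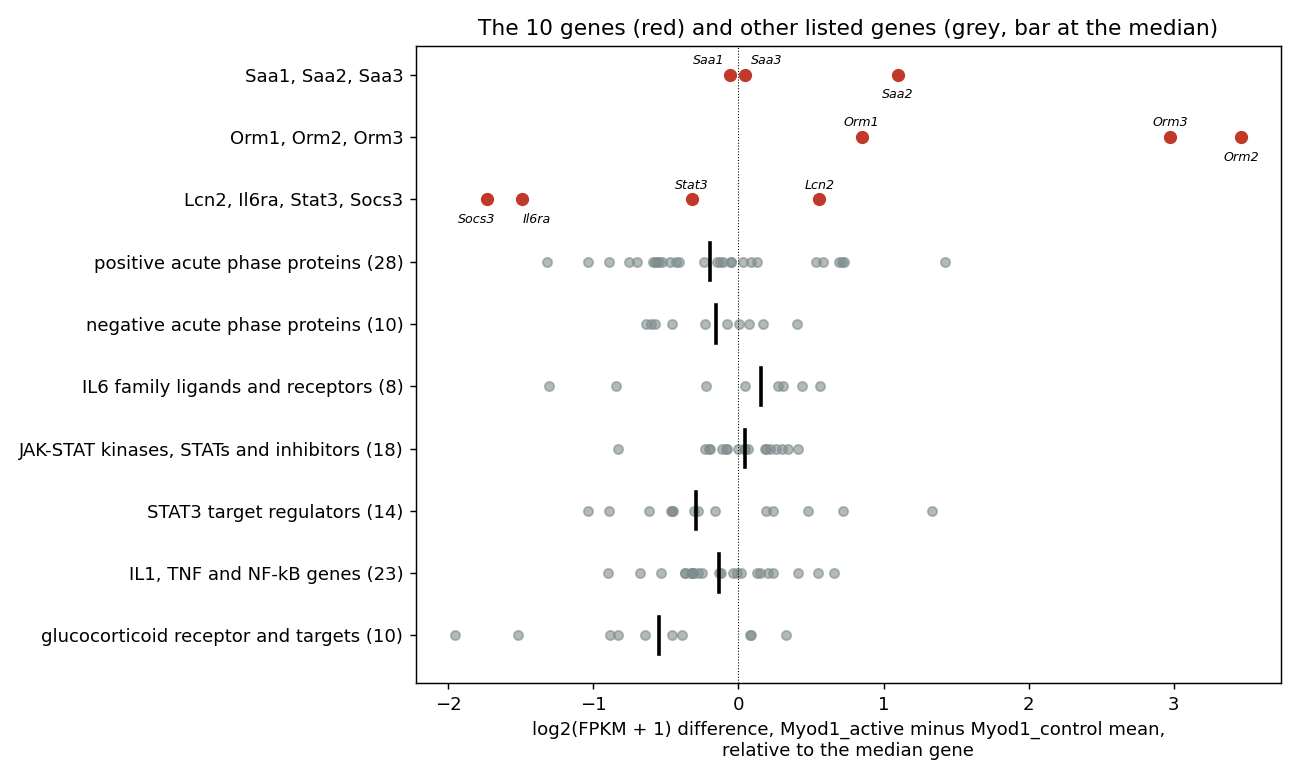
Log2(FPKM + 1) difference of Myod1_active from the mean of Myod1_control, relative to the median gene (dotted line), for the 10 genes in red and the tested members of 7 of the 8 other lists in grey, with the number of genes in brackets and a bar at the list's median. Orm2 at 3.47 and Orm3 at 2.98 lie beyond every listed acute phase gene, and the list medians lie between -0.55 and 0.16.

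The comparison of SunTag with WT asked what the knock-in itself changed, and the values compared come from neither Myod1 group. The genes were nevertheless chosen with earlier results of these libraries known, so limma's test here is not independent of that choice. The fit takes its spread from all groups, and since nothing says that the libraries came from separate mice, its p-values measure only the spread between libraries. In limma's test over all genes 0 of the 10 passed, where 0.127% of all genes did (0.0508% higher and 0.0762% lower), and 1 had an unadjusted p under 0.05, where 1.95% of all genes did. That gene was Il6ra, at 7.06 ± 0.786 FPKM in SunTag and 11.4 ± 1.09 FPKM in WT (SD, n = 2 each; log2 difference -0.64, limma SE 0.142, adjusted p = 1), and it was the only 1 of the 10 whose groups did not overlap, as they did not for 25.8% of all genes (13.0% higher and 12.8% lower). The 3 Saa genes had the largest log2 differences of the 10, and Saa2 and Saa1 the largest limma SE. Saa2 averaged 111 ± 79.2 FPKM in SunTag and 51.8 ± 21.3 FPKM in WT (limma SE 0.761, adjusted p = 1), and SunTag replicate 1 stood above the other 3 libraries, at 167 FPKM. Orm2 averaged 225 ± 33.2 FPKM in SunTag and 186 ± 29.6 FPKM in WT (log2 difference 0.26, limma SE 0.257, adjusted p = 1), and Socs3 2.23 ± 0.0522 FPKM in SunTag and 2.64 ± 1.17 FPKM in WT. Of the 115 listed genes 0 passed limma's test, and 5.22% had an unadjusted p under 0.05.

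SunTag replicate 1 had the highest Saa1, Saa2 and Saa3 of the 7 libraries. The 3 genes summed to 427 FPKM there, 173 FPKM in SunTag replicate 2, 114 FPKM in WT replicate 1 and 206 FPKM in WT replicate 2. The 12 macrophage and Kupffer cell markers with a row summed to 619 FPKM, 384 FPKM, 357 FPKM and 454 FPKM in the same libraries, so both sums had the same order. Their part in the Saa levels was not tested.

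Set beside the SunTag livers of the other experiment, the Myod1_control livers had less of 7 of the 10 genes and more of 3. All 10 had groups that did not overlap, as in 66.6% of all genes (24.9% higher and 41.6% lower), and 7 of the 10 passed limma's test (Socs3 higher, and Saa2, Saa3, Orm1, Orm2, Orm3 and Lcn2 lower), where 24.3% of all genes did (7.30% higher and 17.0% lower). Of the 115 listed genes 29 passed limma's test here, where 24.3% of all genes did. An unadjusted p under 0.05 was found for 49.6% of the listed genes, against 41.7% of all genes. This comparison also uses control libraries that were in view when the genes were chosen, so it is a description. Without either WT library, which belongs to neither group, 48 genes in all passed and Socs3 alone of the 10, and 0 of the 10 passed without either Myod1_control library, without SunTag replicate 1 or in a fit of Myod1_control and SunTag only. The count was 3 without the filter, 4 with the replicate block and also without SunTag replicate 2, and 5 with median-ratio scaling, where Saa2, Orm1 and Lcn2 no longer passed and Stat3 did. Socs3 averaged 14.6 ± 0.194 FPKM in Myod1_control and 2.23 ± 0.0522 FPKM in SunTag (SD, n = 2 each), a 6.57-fold difference. Saa2 averaged 12.7 ± 9.45 FPKM in Myod1_control and 111 ± 79.2 FPKM in SunTag, Saa3 5.18 ± 1.40 and 30.4 ± 14.3 FPKM, and Lcn2 5.59 ± 2.86 and 35.1 ± 22.6 FPKM. Orm2 averaged 62.1 ± 17.4 FPKM in Myod1_control and 225 ± 33.2 FPKM in SunTag, so the ratio of Myod1_active to Myod1_control for Orm2 rests on controls that were low among the 7 libraries.

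Markers of resident macrophages were lower in Myod1_control than in SunTag, as the Saa and Orm genes and Lcn2 were, while Il6ra, Stat3 and Socs3 were higher, and their part in these levels was not tested. The 12 macrophage and Kupffer cell markers summed to 87.0 FPKM in Myod1_active and 74.2 and 85.8 FPKM in Myod1_control, against 357 to 619 FPKM in SunTag and WT. None was at 0 in all libraries, and 11 of the 12 were lower in both Myod1_control libraries than in both SunTag libraries, where 41.6% of all genes were. The Kupffer cell genes Clec4f and Vsig4 were at 9.05 to 13.3 FPKM and 1.63 to 3.25 FPKM in the activation experiment and at 92.4 to 148 FPKM and 17.7 to 27.1 FPKM in SunTag and WT. Il1b was at 0 to 0.225 FPKM and at 1.26 to 3.47 FPKM, and the neutrophil gene S100a9 at 0.262 to 0.303 FPKM and at 3.46 to 17.2 FPKM. Fewer cells of a type and less RNA per cell cannot be told apart in such libraries. Of 7 adipocyte markers, checked because fat also expresses Saa3, 5 were under 1 FPKM in every library and the sum was 4.57 to 9.51 FPKM. Within the activation experiment the macrophage sum of Myod1_active was 87.0 FPKM, against 74.2 and 85.8 FPKM in Myod1_control. Orm2 in Myod1_active was 10.9-fold higher than in the nearer control. Any part of the macrophage markers in the Orm2 level was not tested.

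**Figure D5:**
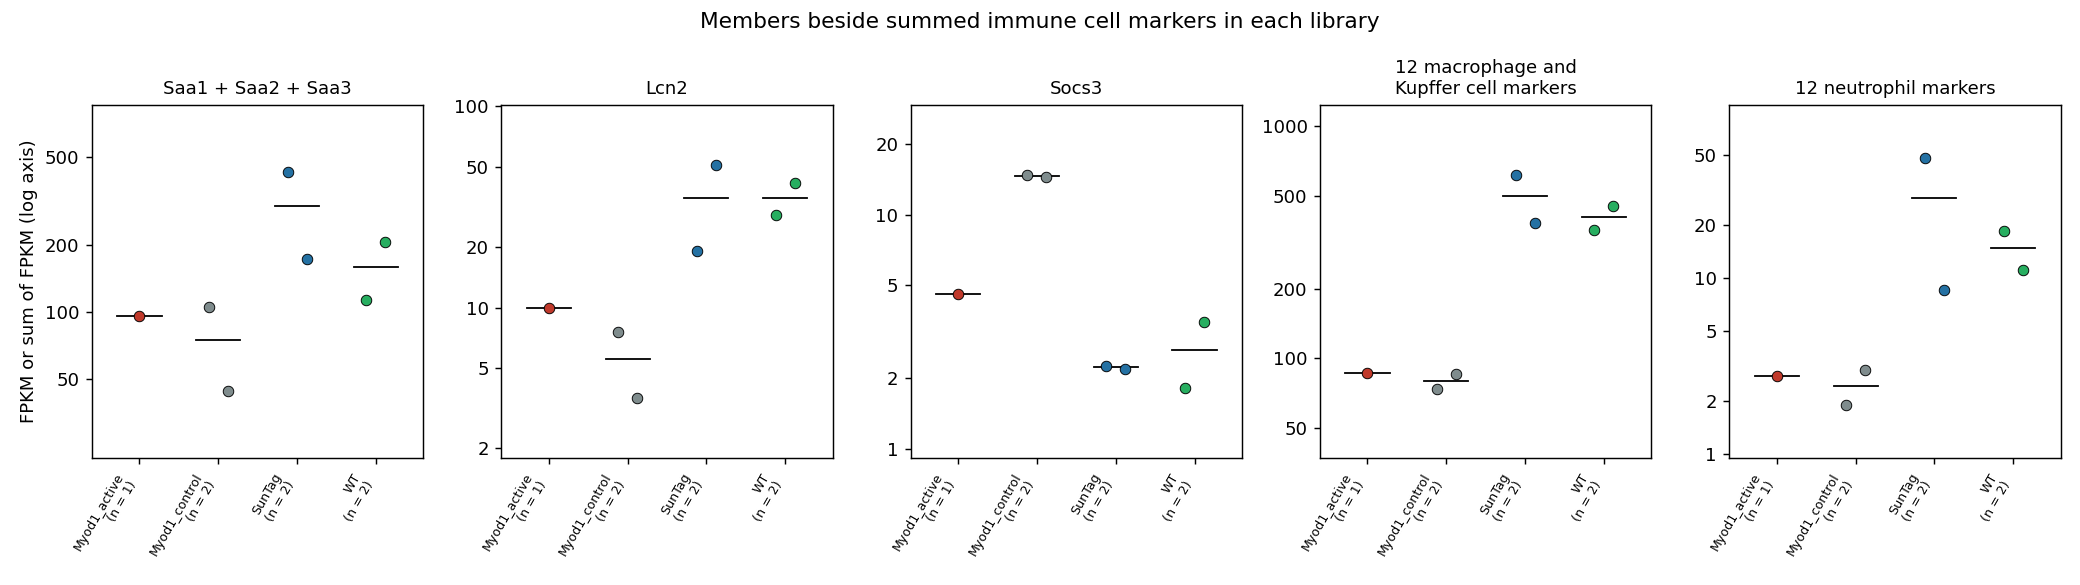
FPKM of the summed Saa genes, Lcn2 and Socs3, and summed FPKM of 12 macrophage and 12 neutrophil markers, on log axes, with 1 point per library and a line at the group mean. The macrophage sum lies between 74.2 and 87.0 FPKM in the 3 libraries of the activation experiment and between 357 and 619 FPKM in SunTag and WT.

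The genes whose centred log2 profile over the 7 libraries came closest to that of Orm1, the most abundant Orm gene, were Med30, Qpct, Ndufa12, Gtf2e2 and Tctex1d2, with root mean square differences of 0.0692, 0.0753, 0.0953, 0.1 and 0.108. The profile of Orm1 itself varied by 0.456 on that measure, and Orm2 lay at 0.810 from it. For Saa1, which varied by 0.768, those close to it included Cebpd, a C/EBP factor of the acute phase response, at 0.287, then the chemokine gene Cxcl9 at 0.299, Kcnj8 at 0.322 and the chemokine gene Cxcl10 at 0.325. Cebpd was at 2.33 FPKM in Myod1_active, 3.38 and 2.32 FPKM in Myod1_control, 12.8 and 5.23 FPKM in SunTag and 4.69 and 6.90 FPKM in WT. Saa3 lay at 0.442 from Saa1, Saa2 at 0.662, Orm1 at 0.611 and Orm2 at 1.21. The measure describes likeness over 7 libraries of which groups share their experiment.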

How the data were processed

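RNA was measured by sequencing in 7 mouse liver libraries. The values are the authors' deposited FPKM per gene, per the file headers, with a lower and an upper bound. The submitters' processing notes name cutadapt 1.11, TopHat2 2.1.1, Cufflinks 2.2.1 and build mm9. No source used here gives settings or read counts, so no counting interval is printed.

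Rows without a valid status in every library (343) were left out and rows of 1 symbol summed (244 symbols), which left 33887 symbols. The 15744 genes with at least 1 FPKM in at least 1 library were tested with limma 3.58.1 (R 4.3.3). The fit used log2(FPKM + 1), a mean for each of the 4 groups and a variance trend, and held all 7 libraries. That scale understates changes of low genes. Myod1_active has 1 library, which is assumed to vary like the other groups. p-values were adjusted by Benjamini-Hochberg over all genes tested, with a threshold of 0.05. The fit was also run on simulated data with noise drawn from its own variance estimates. That run cannot show how well the fit suits these libraries. Printed log2 differences are relative to the median gene, and tests use the unshifted ones. Sequences were aligned with Biopython 1.88.

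The 10 genes and all lists were chosen with earlier results of these data known. Beside the 10, the text names list genes past the threshold in any comparison, otherwise up to 4 of the highest mean FPKM, always Il6, Il1b, Tnf and Crp, up to 6 neighbours, and the 5 genes closest in profile to the most abundant Orm and Saa genes. Some genes that this rule names are not reported here. Alternatives were another pseudocount, no filter, short genes left out, median-ratio scaling, a replicate block, a fit of the compared groups only, and each replicate left out.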

Additional observations from a re-analysis of the deposited data

How the results depend on the processing

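The number of genes past the threshold in Myod1_active against Myod1_control, 40, was 23 with a pseudocount of 0.1, 253 without the filter, 20 without genes spanning under 300 bp and 0 in a fit of those groups only, where 2611 had an unadjusted limma p under 0.05. Leaving out 1 library gave 48 to 122, with 122 without Myod1_control replicate 1 and 94 without replicate 2. For SunTag against WT the 20 genes became 5 without short genes and 20 to 78 with 1 library left out. For Myod1_control against SunTag the 3832 genes became 48 in a fit of those groups only and 48 to 4036 with 1 library left out: 48 without either WT library, 135 and 127 without Myod1_control replicate 1 and 2, and 939 without SunTag replicate 1. Median-ratio scaling there gave 1744 higher and 1847 lower, against 1149 and 2683. The cause of these changes was not tested.

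The genes were chosen with these libraries in view and Myod1_active has 1 library, so nothing is read from the Orm2 calls given here. Orm2 passed in Myod1_active against Myod1_control in the reported fit and without Myod1_control replicate 1. It also passed with median-ratio scaling, no filter, the replicate block and short genes left out. It did not pass with a pseudocount of 0.1, in the fit of those groups only, or without Myod1_control replicate 2 or any 1 SunTag or WT library. Its log2 difference stayed between 3.19 and 3.74 and that of Orm3 between 2.65 and 3.31, while Saa1 ran from -0.65 to 0.55 and Saa3 from -0.18 to 0.27. In SunTag against WT the sign turned with 1 library left out for Lcn2 (-0.84 to 0.55; higher without SunTag replicate 1, and 0.12 without WT replicate 2), Orm1 (-0.024 to 0.32; lower without SunTag replicate 1), Orm3 (-0.19 to 0.35; lower without SunTag replicate 2) and Socs3 (-0.51 to 0.20; higher without WT replicate 2), none of which passed in any setting run.

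Replicate numbers did not pair the libraries (correlations of deviations 0.0425, 0.000757 and 0.0341). With the numbers as a replicate block 23, 15 and 2928 genes passed in the comparisons in the order above.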

Other observations

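For Orm2 and Socs3, chosen after their values were seen, the closest profiles over the 7 libraries were also listed. Orm2, which varied by 1.19 on the root mean square measure, was closest to Cryab, a small heat shock protein, at 0.302, then Orm3 at 0.323, Pdzk1ip1 at 0.372, Fxyd3 at 0.512 and Arl4d at 0.522. Cryab was at 27.95 FPKM in Myod1_active, 0.826 and 1.107 FPKM in Myod1_control and 4.003 to 6.14 FPKM in SunTag and WT. Socs3, which varied by 0.981, was closest to Col27a1 at 0.214, Aox1 at 0.273, the acyl-CoA synthetase Acsl1 at 0.299, the protease inhibitor Mug1 at 0.308 and the melatonin receptor Mtnr1a at 0.328. Mug1 was at 523 FPKM in Myod1_active, 1371 and 1419 FPKM in Myod1_control and 302 to 461 FPKM in SunTag and WT.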
